A study of Mus musculus with 2 samples.

Results

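The genes described here are 7 components of insulin and IGF receptor signalling: the receptors Insr and Igf1r, the receptor substrates Irs1 and Irs2, the PI3-kinase regulatory subunit Pik3r1, the kinase Akt2 and the transcription factor Foxo1. They were chosen by gene symbol from the 31053 genes listed in the count matrices. All 7 were found. Their levels were followed in the endocrine cell classes of mouse pancreatic islets and in the other cells of the same preparations.

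Insulin and the insulin-like growth factors bind receptor tyrosine kinases that phosphorylate IRS proteins. IRS proteins recruit PI3-kinase through its regulatory subunit, and the lipid product of PI3-kinase activates AKT. AKT phosphorylates FOXO1 and keeps it out of the nucleus, and Irs2 and Insr are among the genes that FOXO1 is known to activate in other tissues, liver above all. In rodent β cells Irs2 is known for its part in β cell growth and survival, and its transcription is known to respond to cAMP and CREB.

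The islets came from C57BL/6J mice aged 13 weeks, in 2 groups named HFD (mice on a high-fat diet, used as a prediabetes model) and CD (a name that the labels do not expand). Each group was 1 single-cell library made with the 10x Genomics 3' v3 chemistry from collagenase-released, hand-picked islets dispersed with TrypLE. The number of mice, their sex and the length of the diet are not given in the sources used here. Every HFD and CD value below is therefore 1 library, no difference between the diets has a replicate check, and the intervals cover counting error only.

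The HFD library held 271527648 unique molecular identifiers (UMIs, one per captured transcript molecule) and the CD library 265836346. Barcodes with at least 1500 UMIs, at least 500 genes and at most 15% mitochondrially encoded UMIs were kept as cells, which gave 12062 HFD and 9667 CD cells, with 26 barcodes occurring in both. β cells (at least 30% of UMIs on Ins1 and Ins2) numbered 7433 in HFD and 6515 in CD. α cells (at least 10% on Gcg) numbered 2005 and 1272, δ cells (at least 3% on Sst) 662 and 570, and PP cells (at least 20% on Ppy) 535 and 328, in HFD and CD in each case, and each class required the other hormones to be below their limits. The other 1427 HFD and 982 CD cells included 536 and 339 endothelial-like, 216 and 152 macrophage-like and 195 and 143 mesenchymal-like cells, named from clusters by marker genes. They also included 143 HFD and 144 CD cells past the limits of more than 1 hormone, and a PP-like cluster of 260 HFD and 148 CD cells led by Pyy, Chga and Ppy that reached no hormone limit.

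Levels are given in CPM, the usual depth-scaled count, with UMIs summed over the cells of a class and the total taken over UMIs outside 7 hormone genes (Ins1, Ins2, Gcg, Sst, Ppy, Pyy, Iapp) and outside mitochondrially encoded genes. Hormone genes took 69.5% of all UMIs in HFD and 69.0% in CD β cells, against 26.1% and 26.0% in δ cells, so this denominator bears on every comparison between classes. CPM were compared across classes and libraries for 1 gene at a time and never between genes. Defining transcription factors followed the hormone classes: Nkx6-1 stood at 511 CPM in HFD and 375 in CD β cells, Irx2 at 159 and 162 in α cells, and Hhex at 336 and 311 in δ cells.

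The 2 IRS genes showed different patterns in the values below, and their upstream sequences are shown for that reason. The windows are the 250 bases before the RefSeq start on GRCm38.p6, from which positions are counted backwards. Irs2 is on chromosome 8, minus strand, with the gene at 10984681 to 11008458 in GENCODE M21 and the window at chr8:11008930-11009179, so the RefSeq start lies upstream of the GENCODE one. Irs1 is on chromosome 1, minus strand, with the gene at 82233101 to 82291416 and the window at chr1:82291440-82291689. Capitals mark CACGTG, the E-box bound by many basic helix-loop-helix factors.
Irs2: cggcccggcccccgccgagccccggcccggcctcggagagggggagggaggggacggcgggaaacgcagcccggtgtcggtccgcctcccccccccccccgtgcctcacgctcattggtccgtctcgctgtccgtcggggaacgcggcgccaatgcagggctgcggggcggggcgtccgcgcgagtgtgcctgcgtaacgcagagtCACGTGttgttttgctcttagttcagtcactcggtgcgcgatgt
Irs1: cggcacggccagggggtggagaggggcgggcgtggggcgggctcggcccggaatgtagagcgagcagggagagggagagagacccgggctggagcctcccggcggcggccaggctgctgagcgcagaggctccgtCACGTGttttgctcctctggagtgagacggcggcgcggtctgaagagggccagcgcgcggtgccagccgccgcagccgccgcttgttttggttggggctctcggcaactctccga

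The E-box started at -44 in the Irs2 window and at -115 in the Irs1 window. In each window it lay within a run of 10 bases that the windows share. CACGTG was searched after the sequences had been seen, and it is present in 6.02% of 32851 mouse promoter windows of the same length. The FOXO motif GTAAACA (3.17% of windows) and the full cAMP response element TGACGTCA (1.55%) had no match on either strand in either window. Its shorter core TGACG (17.8% of windows) matched once in the Irs1 window, at -118 and overlapping the E-box, and had no match in the Irs2 window. Both windows were rich in G and C, at 72.8% for Irs2 and 72.4% for Irs1.

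Insr encodes the insulin receptor (chromosome 8, 3122061 to 3279617, minus strand). Its level was 468 CPM in HFD and 345 in CD endothelial-like cells, 53.6 and 43.3 in β cells, 53.3 and 41.0 in δ cells, 40.8 and 28.8 in α cells, and 38.8 and 29.1 in PP cells. Endothelial-like cells therefore stood apart in both libraries, while the β and δ ranges overlapped, as did those of α and PP cells. Macrophage-like cells had 20.04 CPM in HFD and 20.96 in CD, from 17 and 15 UMIs. β cells were below the class of all other cells, which holds PP-like and mixed endocrine cells too, by -1.72 on the log2 scale (edgeR quasi-likelihood test with the library as a block and Benjamini-Hochberg adjustment over all genes, adjusted p = 0.000258), and α, δ and PP cells were also below it.

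Igf1r encodes the IGF1 receptor (chromosome 7, 67952827 to 68233668, plus strand). Its level was 144 CPM in HFD and 135 in CD β cells, 99.2 and 80.4 in δ cells, 51.8 and 47.6 in PP cells, and 34.2 and 33.0 in α cells. The 4 endocrine classes kept this order in both libraries with no overlap between neighbours. β cells exceeded α cells by 2.06 on the log2 scale (adjusted p = 1.05e-06), with 2.07 in the HFD and 2.03 in the CD library alone. They exceeded PP cells by 1.49 (adjusted p = 4.4e-27). They also exceeded δ cells, by 0.65 (adjusted p = 0.000155), although with all UMIs as the denominator that difference turned to -0.69. Free RNA from lysed cells was estimated to supply 14.6% of the Igf1r UMIs of HFD α cells and 43.7% of those of CD α cells, against 15.6% and 12.1% in β cells.

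**Figure D1:**
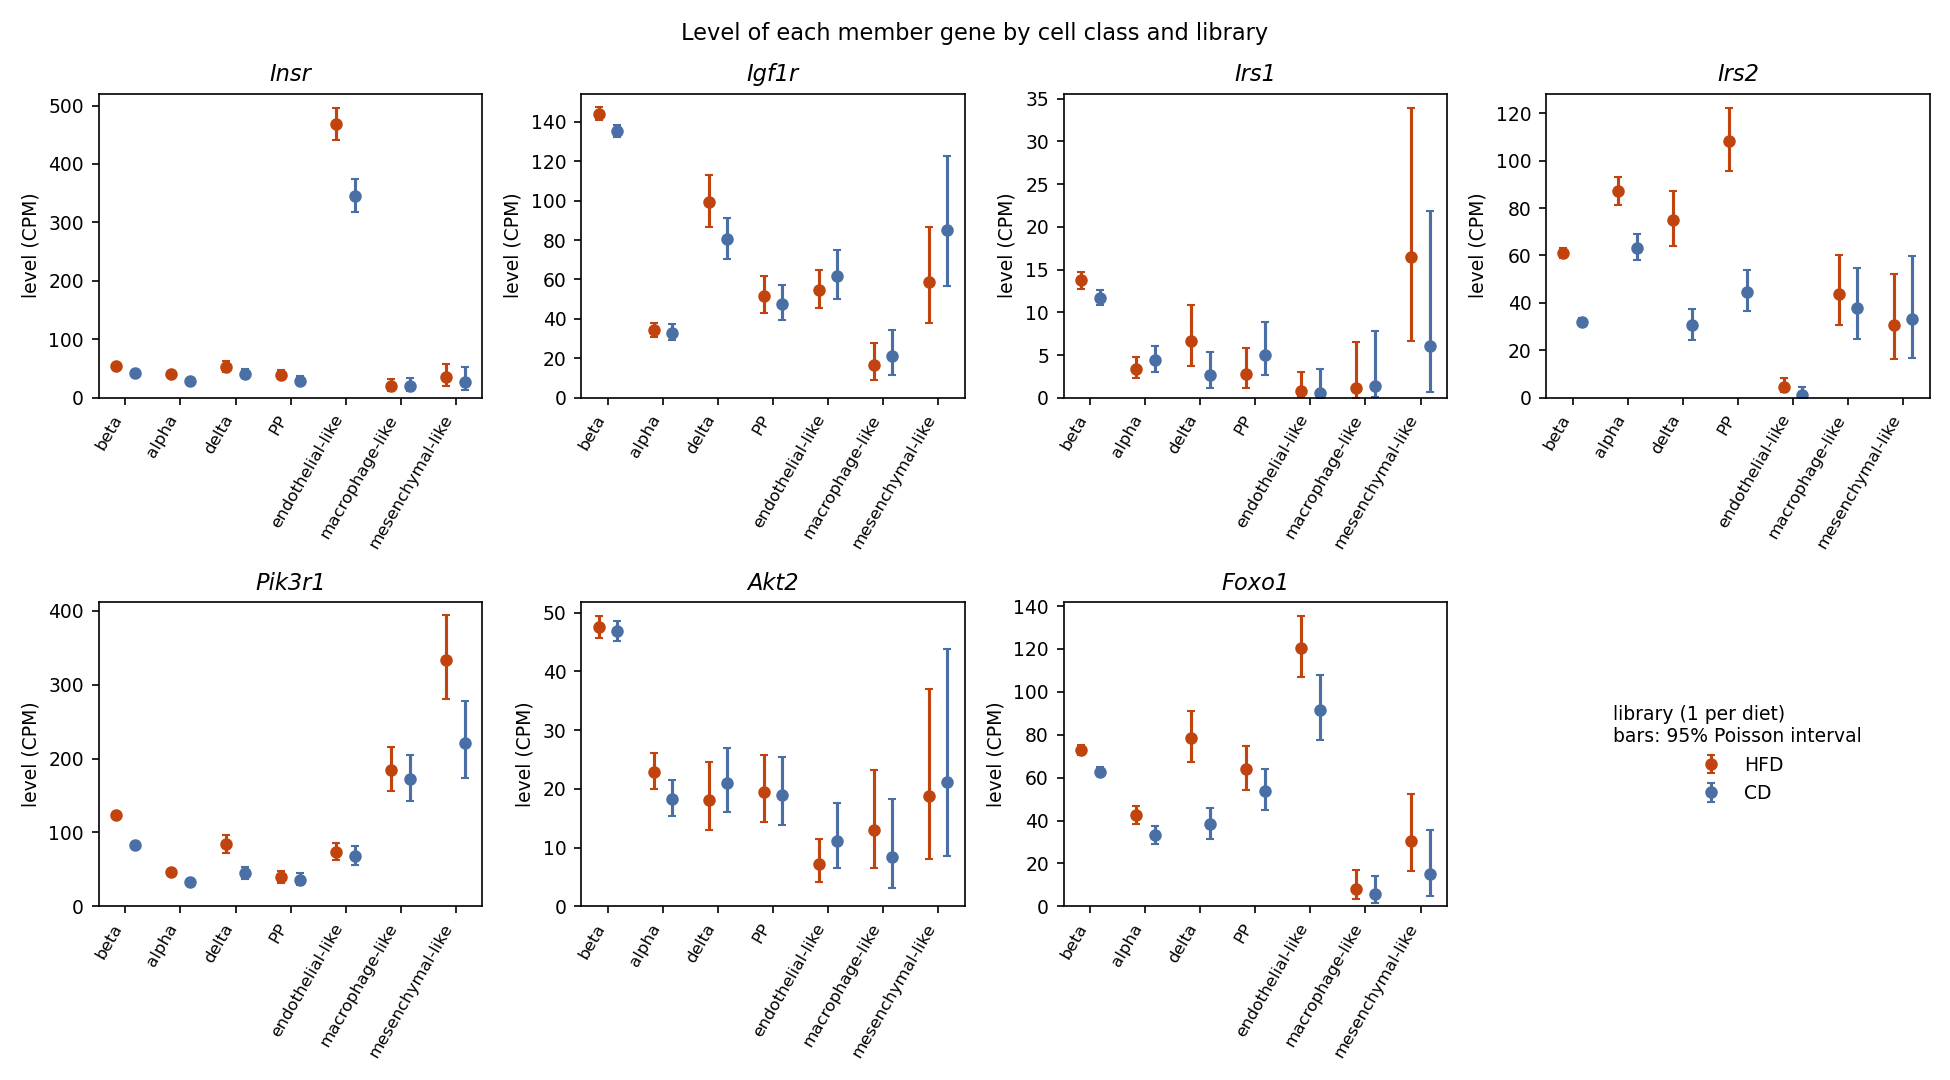
Level in CPM (y axis, linear, from 0) of each gene in 7 cell classes (x axis), with the HFD library left and the CD library right in each pair and exact 95% Poisson intervals as bars. Insr and Foxo1 were highest in endothelial-like cells and Irs2 was near 0 there. Igf1r and Akt2 were highest in β cells on this scale. With all UMIs as the denominator β cells were below δ cells for Igf1r in both libraries. For Akt2 β cells were then below δ cells in the CD library and slightly above them in the HFD library. The Irs2 level of HFD PP cells was 108 CPM, against 44.7 in CD PP cells.

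The receptor substrates differed from each other in where they were found. Irs1 (chromosome 1) had its highest endocrine level in β cells, 13.7 CPM in HFD and 11.7 in CD, against 3.39 and 4.37 in α cells. δ cells held 15 Irs1 UMIs in HFD and 8 in CD, and PP cells 7 and 12, too few for more than a rough level. The β excess was 1.73 on the log2 scale over α cells (adjusted p = 0.000191), 1.51 over δ cells (adjusted p = 0.000685; 0.18 and not called with all UMIs as the denominator) and 1.69 over PP cells (adjusted p = 8.49e-07). The differences were positive in each library alone, but their size varied, as 1.05 in the HFD and 2.11 in the CD library over δ cells.

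Irs2 ran the other way among the endocrine classes. Its level was 61.05 CPM in HFD and 32.1 in CD β cells, 87.2 and 63.4 in α cells, 108 and 44.7 in PP cells, and 74.9 and 30.5 in δ cells. β cells were below α cells by -0.74 on the log2 scale (adjusted p = 0.00106) and below PP cells by -0.68 (adjusted p = 2.86e-06). Both calls were lost without the library block (adjusted p = 0.121 and 0.226), when the difference between the libraries counts as spread. The difference between β and δ cells was not called (log2 -0.14, adjusted p = 0.434). The order by library was PP, α, δ, β in HFD and α, PP, β, δ in CD.

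In endothelial-like cells both substrate genes were near the free RNA level. Irs2 had 11 UMIs in HFD and 2 in CD endothelial-like cells (4.62 and 1.23 CPM), and Irs1 had 2 and 1. Free RNA was estimated to supply 53.05% of those Irs2 UMIs in HFD and 197% in CD, more than were counted. Empty barcodes of 10 to 100 UMIs held Irs2 at 60.4 CPM in HFD and 52.9 in CD. In the class with the most Insr, Irs1 and Irs2 were thus not detectable clearly above free RNA at this depth. Macrophage-like cells held Irs2 at 43.6 CPM in HFD and 37.7 in CD, from 37 and 27 UMIs.

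Pik3r1 encodes the regulatory subunits p85α, p55α and p50α of PI3-kinase (chromosome 13, 101680563 to 101768217, minus strand). It was highest in mesenchymal-like cells, 334 CPM in HFD and 222 in CD, and in macrophage-like cells, 184 and 172. Among endocrine cells it stood at 124 CPM in HFD and 82.7 in CD β cells, 83.8 and 44.8 in δ cells, 46.2 and 32.9 in α cells, and 39.2 and 36.2 in PP cells. β cells exceeded α cells by 1.38 on the log2 scale (adjusted p = 8.96e-06; 0.23 and not called with all UMIs as the denominator) and PP cells by 1.44 (adjusted p = 3.68e-23). The β excess over δ cells was 0.72 (adjusted p = 0.000137). It was not called without the library block (0.70) and turned to -0.62 with all UMIs as the denominator.

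Akt2 encodes the AKT isoform best known for insulin-stimulated glucose uptake (chromosome 7, 27591552 to 27640826, plus strand). Its level was 47.6 CPM in HFD and 46.9 in CD β cells, and it lay between 18.1 and 22.9 CPM in α, δ and PP cells of either library. The β excess was 1.199 on the log2 scale over α cells (adjusted p = 6.41e-05), 1.26 over δ cells (adjusted p = 3.22e-06) and 1.30 over PP cells (adjusted p = 1.33e-13). With all UMIs as the denominator the difference was 0.05 from α cells, not called, and -0.07 from δ cells. The difference from δ cells then had opposite signs in the HFD and CD libraries. No difference among α, δ and PP cells was called, with log2 differences of 0.06 (α over δ), 0.10 (α over PP) and 0.03 (δ over PP).

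Foxo1 (chromosome 3, 52268336 to 52353221, plus strand) overlaps the antisense gene Gm20402, which had 11 UMIs in all cells, against 9459 for Foxo1. It was highest in endothelial-like cells, 121 CPM in HFD and 91.7 in CD. It stood at 72.9 CPM in HFD and 62.7 in CD β cells, 78.5 and 38.3 in δ cells, 63.9 and 53.9 in PP cells, and 42.5 and 33.2 in α cells. α cells were the lowest endocrine class in both libraries. They were below PP cells by -0.64 on the log2 scale (adjusted p = 3.38e-06) and below δ cells by -0.59 (adjusted p = 2.3e-05). The first was not called with all UMIs (-0.01) and neither was called by DESeq2 (-0.44 and -0.25) or without the library block (-0.64 and -0.61). β cells exceeded α cells by 0.84 (adjusted p = 0.00015), which turned to -0.30 with all UMIs as the denominator, and did not pass the test against δ (0.28, adjusted p = 0.17) or PP cells (0.20, adjusted p = 0.221).

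Over the 7 genes, 6 were higher and Irs2 was lower in β than in α cells. In that comparison 47.3% of 14255 genes tested were called higher and 11.1% lower, and the median over all of them was 0.37 on the log2 scale. Insr, at 0.49, was close to that median and was not called once TMM factors (a scaling that assumes most genes equal) were used (log2 0.11, adjusted p = 0.42). Against δ cells 4 of 7 were called higher in β cells (22.8% of all genes) and none lower (18.1%), and against PP cells 5 were called higher and Irs2 lower (28.3% and 13.8% of all genes). The Insr excess of β over PP cells, 0.52 (adjusted p = 0.00221), was -0.0004 with all UMIs as the denominator.

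**Figure D2:**
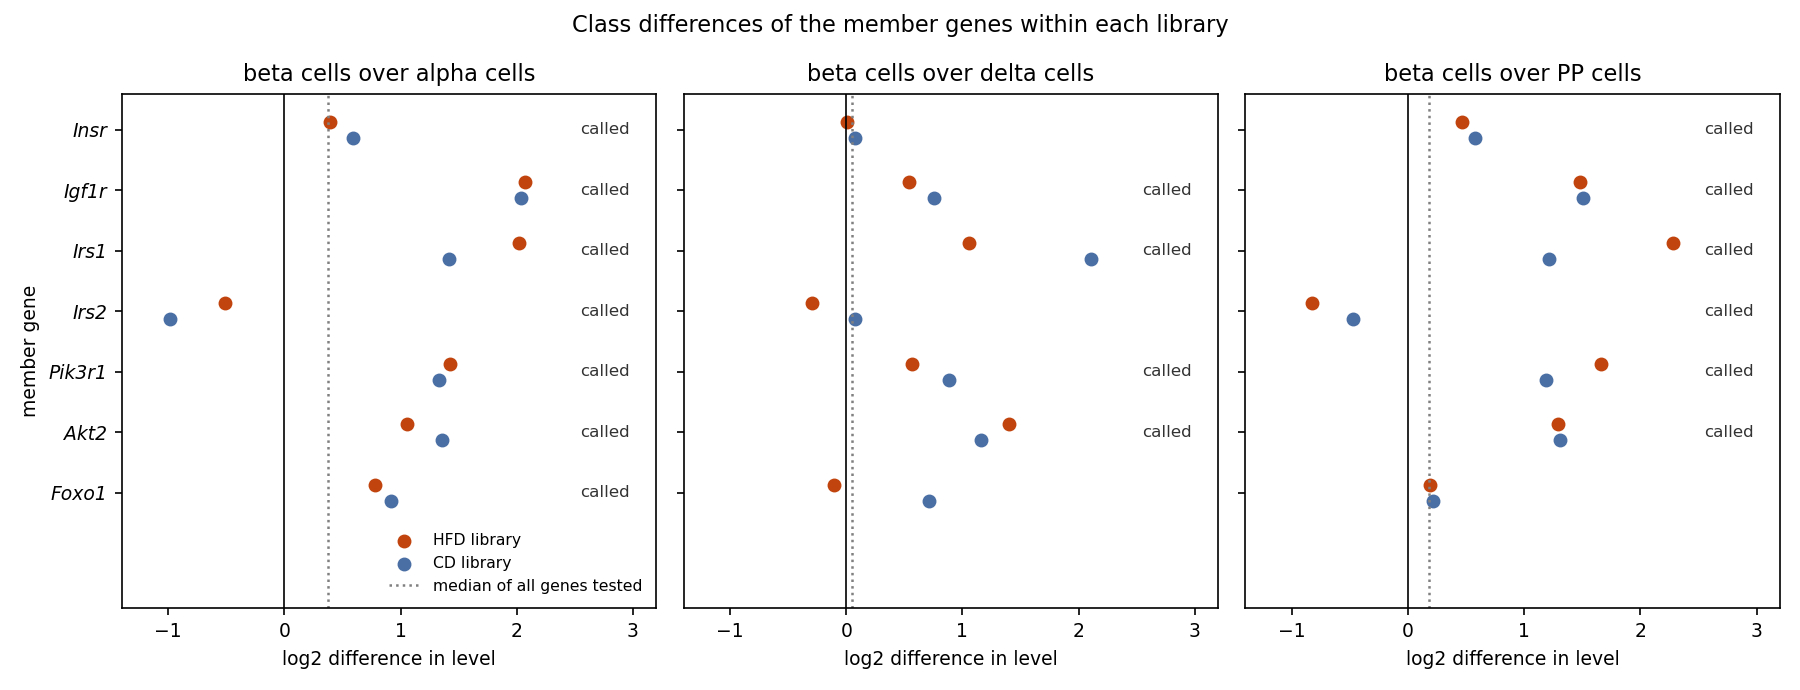
Log2 difference in level (x axis) between β and α, δ or PP cells for each gene (rows), with the HFD library above and the CD library below in each row; the dotted line is the median of all genes tested and "called" marks an adjusted p under 0.05. Irs2 was the gene on the negative side in both libraries against α and PP cells. With all UMIs as the denominator the called differences of Insr and Foxo1 over α cells and of Igf1r and Pik3r1 over δ cells turned negative. Those of Akt2 over δ cells and of Insr over PP cells then had opposite signs in the HFD and CD libraries.

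Among the remaining endocrine pairs, Irs2 was higher in α than in δ cells by 0.57 on the log2 scale (adjusted p = 7.81e-06), and it was the 1 gene of the 7 called in that direction (7.89% of all genes). That call was lost without the library block (0.54). Igf1r, Pik3r1, Foxo1 and Insr were lower in α than in δ cells (40.4% of all genes), Igf1r by -1.41 (adjusted p = 1.66e-31). Of these 4 calls that of Igf1r alone was kept both by DESeq2 and without the library block. α cells were below PP cells in Igf1r and Foxo1 (28.9% of all genes) and above them in no member (6.37%), and the Igf1r difference of -0.56 was not called by DESeq2 or without the block and turned to 0.07 with all UMIs as the denominator. δ cells exceeded PP cells in Igf1r, Pik3r1 and Insr, 3 of the 6 genes tested (18% of all genes). They were below PP cells in Irs2, by -0.54 (adjusted p = 0.00209; 9.09% of all genes), which turned to 0.28 with all UMIs as the denominator. DESeq2 called 0 members in this pair, with 2 at an unadjusted p under 0.05 and the lowest adjusted p, for Igf1r, at 0.069. Of 10713 genes in this pair DESeq2 called 502 higher and 377 lower. Against the class of all other cells, Igf1r, Irs1, Irs2 and Akt2 were called higher in β cells (38.6% of 14894 genes) and Insr lower (24.2%); with all UMIs as the denominator Igf1r, Irs2 and Akt2 turned to -0.23, -0.95 and -0.08, and Irs1 (0.60) was not called. The Irs2 call over that class was also lost with TMM (0.18, adjusted p = 0.192), by DESeq2 (0.21, adjusted p = 0.493) and without the block (0.47, adjusted p = 0.303). Irs2 was called higher than in that class in α cells by 1.17 (21.2% of genes), in δ cells by 0.60 (34.8%) and in PP cells by 1.16 (30.6%). The Irs2 call was lost in δ cells with TMM (0.39, adjusted p = 0.0533), by DESeq2 (0.37, adjusted p = 0.597) and without the block (0.63, adjusted p = 0.222). In PP cells it was lost by DESeq2 (0.97, adjusted p = 0.178) and with all UMIs (0.26, adjusted p = 0.126). Igf1r was also called higher there in δ cells, by 0.51, but not by DESeq2 (0.32, adjusted p = 0.485). Called lower than in that class were 4 members in α cells (Insr, Igf1r, Pik3r1 and Foxo1; 35.8% of genes), 2 in δ cells (Insr and Pik3r1; 25%) and 3 in PP cells (Insr, Igf1r and Pik3r1; 28%). The Igf1r call in PP cells was lost by DESeq2 (-0.47, adjusted p = 0.612) and without the block (-0.34, adjusted p = 0.111). That of Pik3r1 in δ cells was lost without the block (-0.63). The adjustment was over genes within each of the 10 pairs of classes. These p-values set a class difference against counting error and a spread moderated across genes. Each gene has 1 residual degree of freedom, from 2 libraries that also differ in diet. A small p-value therefore does not show that a difference had the same size in both libraries.

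Across 14 sums (7 classes in each of 2 libraries) the levels of the 7 genes could be set against those of 13042 others, as Pearson's r of log2(CPM + 1). The points share libraries, depth and free RNA, so r is a description. Insr ran closest to Shank3 (r = 0.97), Hmbox1 (0.97) and Slco2a1, a prostaglandin transporter (0.97). Igf1r ran closest to Insig2 (0.96), Irs1 to Cluh (0.93), Irs2 to Syt11 (0.95), Pik3r1 to Btg1 (0.93), Akt2 to Ncoa1 (0.94) and Foxo1 to Edc3 (0.98). Among the members themselves r was highest for Irs1 with Akt2 (0.80) and for Insr with Foxo1 (0.70), and lowest for Insr with Irs2 (-0.81). The r values of Irs1 rest partly on sums with very few UMIs. Endothelial-like cells held 2 Irs1 UMIs in HFD and 1 in CD, and macrophage-like cells held 1 in each library. Endothelial-like cells, highest in Insr, had the lowest Irs2 of the 7 classes.

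The comparison of HFD with CD was made within each class. A ratio of at least 1.5 in either direction, among genes with at least 50 UMIs over both libraries, is called past the fold. In β cells 2 of the 7 genes, Irs2 and Pik3r1, were past it toward HFD, where 9.6% of 13974 genes were. In δ cells 3 of 6 genes with enough UMIs were (Irs2, Foxo1 and Pik3r1; 8.01% of 9366 genes), and in PP cells 1 of 6 was (Irs2; 4.37% of 8732 genes). In α cells none of the 7 reached the fold (4.96% of 11078 genes), though the ratios of Insr, Pik3r1 and Irs2 lay between 1.38 and 1.42. No member counted was past the fold toward CD in these classes, where 4.89% of genes in β, 4.3% in α, 3.69% in δ and 4.57% in PP cells were. In endothelial-like cells no member counted was past it in either direction, where 6.3% of 7623 genes were toward HFD and 4.32% toward CD.

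Irs2 had the highest HFD to CD ratio of the members counted in β, δ and PP cells. The level was 61.05 CPM in HFD and 32.1 in CD β cells, a log2 ratio of 0.93 (95% interval 0.84 to 1.01). In δ cells it was 74.9 CPM in HFD, from 170 UMIs, and 30.5 in CD, from 90 UMIs, a log2 ratio of 1.30 (0.92 to 1.68). PP cells had 108 CPM in HFD, from 268 UMIs, and 44.7 in CD, from 106 UMIs, a log2 ratio of 1.28 (0.95 to 1.62). These ratios stood at the 95.2th percentile of all genes tested in β cells and at the 99.6th in both δ and PP cells. α cells, with 87.2 CPM in HFD and 63.4 in CD, had the smaller log2 ratio of 0.46 (0.30 to 0.62). Whether the ratio differs between classes was not tested, since each diet is 1 library.

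**Figure D3:**
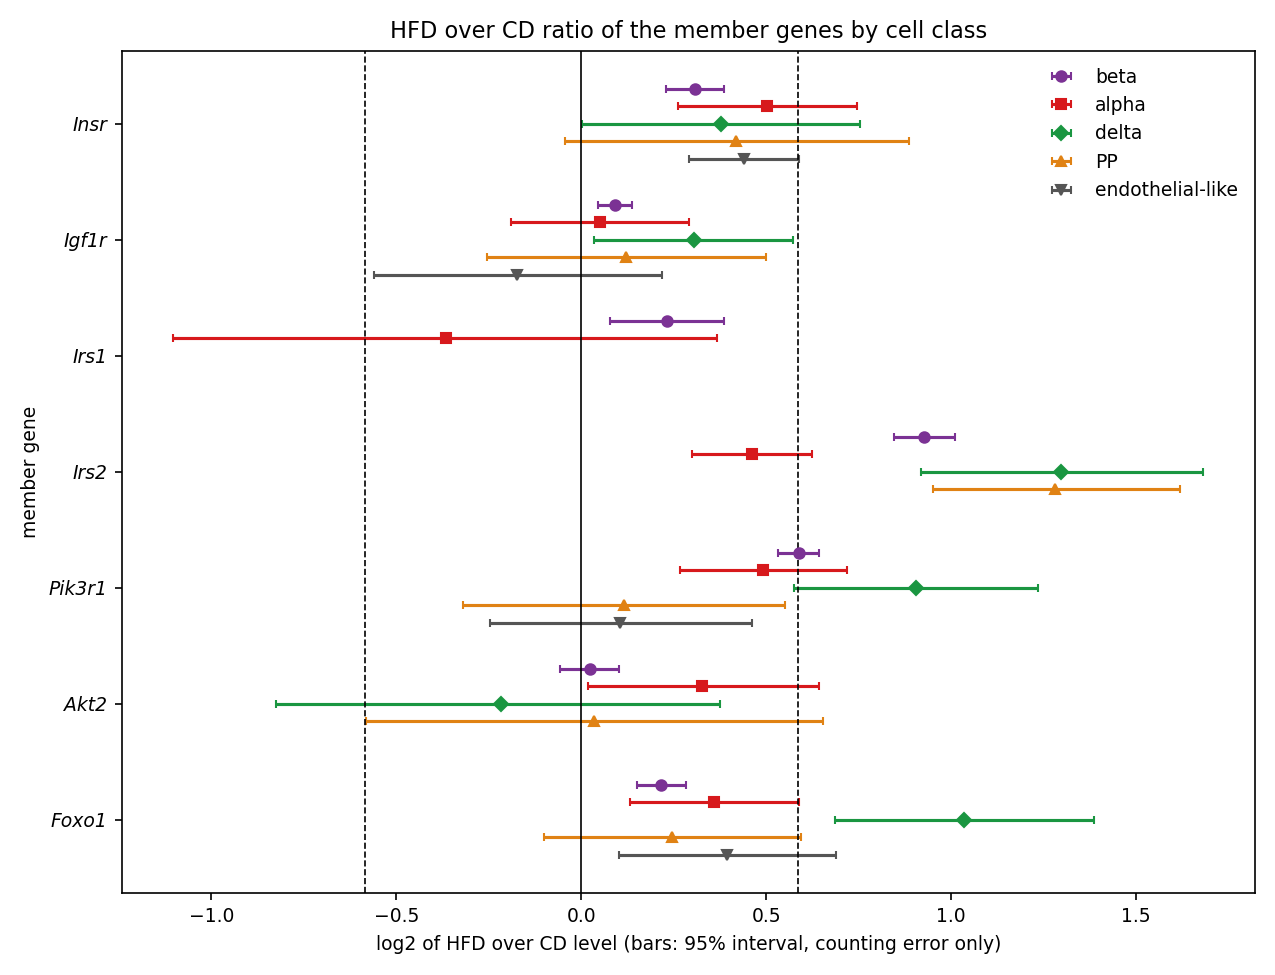
Log2 of the HFD over CD level (x axis) of each gene (rows) in β, α, δ, PP and endothelial-like cells, from top to bottom within a row, with exact 95% intervals for counting error; dashed lines mark a ratio of 1.5 in either direction, and genes under 50 UMIs in a class are not drawn. Irs2 lay right of the dashed line in β, δ and PP cells (0.93, 1.30 and 1.28), and Foxo1 did in δ cells alone among the classes drawn (1.03).

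Pik3r1 was at 124 CPM in HFD and 82.7 in CD β cells, a ratio of 1.502 (95% interval 1.45 to 1.56) that sits on the fold itself (log2 0.50 with all UMIs as the denominator). In δ cells it was at 83.8 CPM in HFD and 44.8 in CD (log2 0.90, interval 0.58 to 1.24), and in α cells at 46.2 and 32.9 (log2 0.49, interval 0.27 to 0.72). PP cells had 39.2 CPM in HFD and 36.2 in CD, with an interval that holds 0 (log2 0.12, -0.32 to 0.55). Mesenchymal-like cells, with 142 HFD and 73 CD UMIs, had 334 and 222 CPM (log2 0.59); in those cells 8.07% of 2714 genes were past the fold toward HFD and 8.81% toward CD.

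Foxo1 was past the fold in δ cells, at 78.5 CPM in HFD, from 178 UMIs, and 38.3 in CD, from 113 UMIs (log2 1.03, interval 0.69 to 1.39). The log2 ratio was 0.22 in β, 0.36 in α and 0.25 in PP cells. Endothelial-like cells had 121 CPM in HFD and 91.7 in CD (log2 0.39, interval 0.10 to 0.69).

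Insr was higher in HFD in β, α, δ, PP and endothelial-like cells without passing the fold, and in PP cells its interval holds 0. Its log2 ratio was 0.31 in β (interval 0.23 to 0.39), 0.50 in α (0.26 to 0.74), 0.38 in δ, 0.42 in PP and 0.44 in endothelial-like cells (0.29 to 0.59). The class of all other cells taken as a whole did pass it, at 203 CPM in HFD and 122 in CD (log2 0.73), as did Irs2 there (6.35% of 11896 genes, with 4.56% past it toward CD and no member among them). Of that class 536 of 1427 HFD and 339 of 982 CD cells were endothelial-like. By UMIs, which weigh the level, they held 2382482 of 6346870 in HFD and 1624817 of 5710402 in CD, outside hormone and mitochondrially encoded genes. They supplied 1115 of the 1291 HFD and 561 of the 699 CD Insr UMIs of the class. Endothelial-like cells alone did not pass the fold, and the part of this make-up in the Insr level of the class was not tested.

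The remaining 3 genes lay within the fold in β cells. Igf1r stood at 144 CPM in HFD and 135 in CD (log2 0.09, interval 0.04 to 0.14), and Akt2 at 47.6 and 46.9 (log2 0.02, -0.06 to 0.10). Irs1, the paralogue of Irs2, stood at 13.7 and 11.7 (log2 0.23, 0.08 to 0.39). In β cells the upper bound of the Irs1 ratio therefore lies below the lower bound of the Irs2 ratio. In α cells Irs1 had 33 UMIs in HFD and 34 in CD, and its interval (-1.10 to 0.37) holds both directions. In the other classes the log2 ratio of Igf1r was 0.05 in α, 0.30 in δ, 0.12 in PP and -0.17 in endothelial-like cells, and that of Akt2 was 0.33 in α, -0.22 in δ and 0.03 in PP cells.

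**Figure D4:**
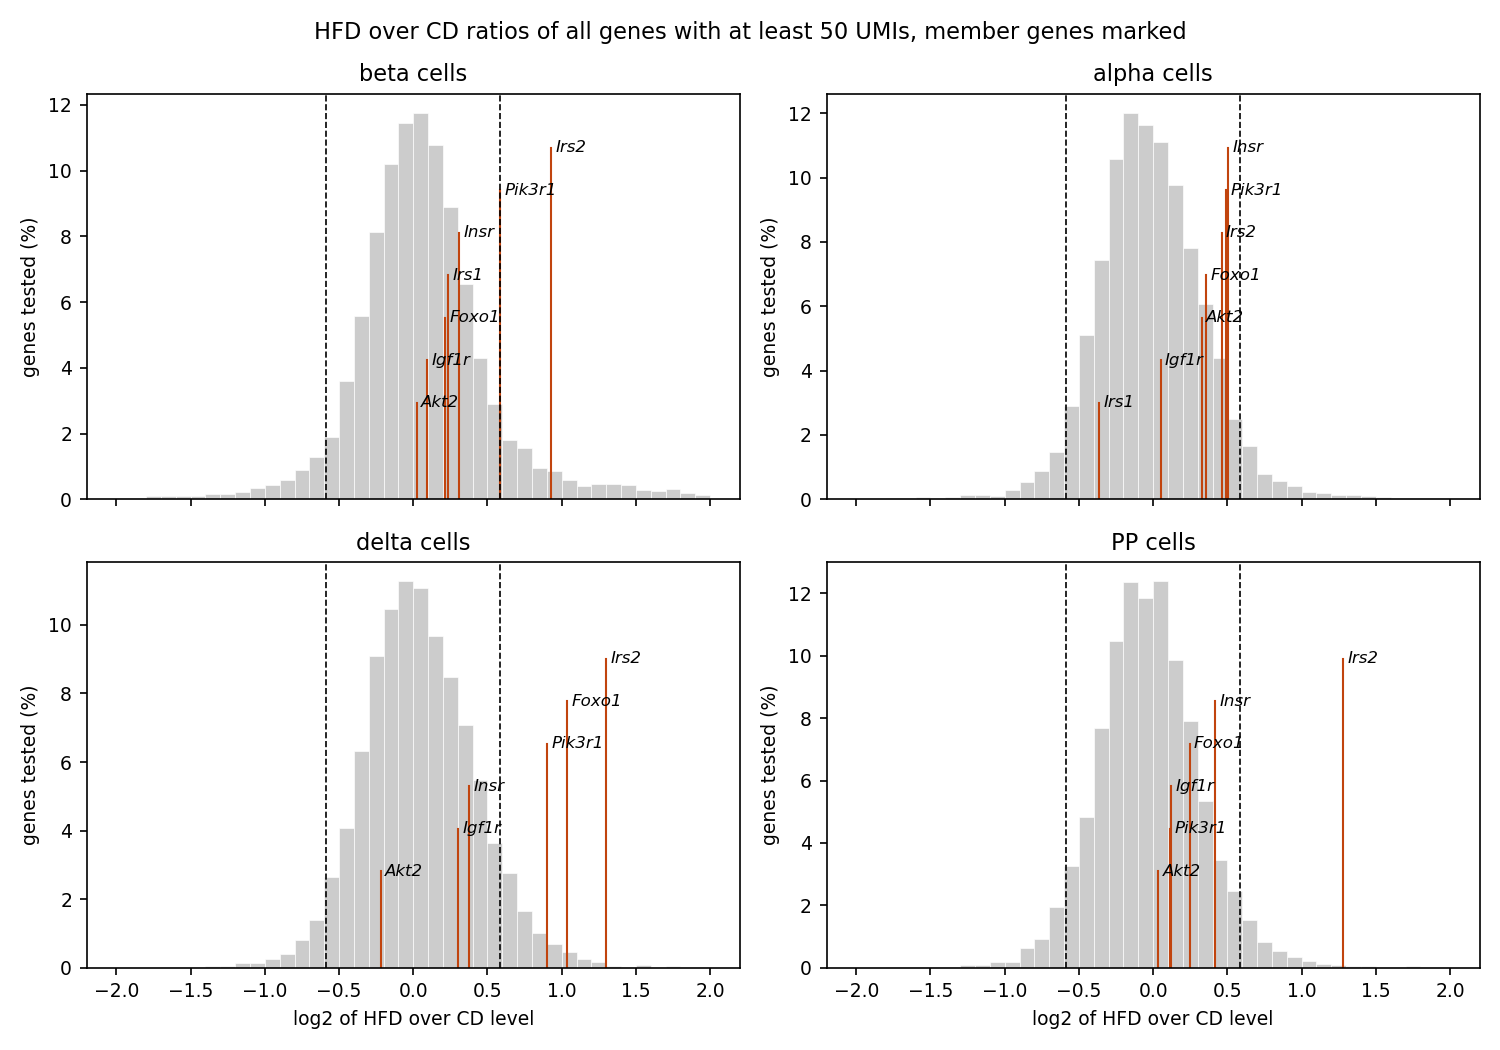
Distribution of log2 HFD over CD ratios (x axis, bins of 0.1; y axis, percent of genes tested) in β, α, δ and PP cells for all genes with at least 50 UMIs, with the members marked by vertical lines whose height has no meaning; dashed lines mark a ratio of 1.5. Irs2 lies in the right tail in β, δ and PP cells and inside the dashed lines in α cells; genes beyond 2 in either direction are not drawn.

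Other measures differed between the HFD and CD libraries too, and with 1 library per diet they cannot be told apart from the diet. Mitochondrially encoded genes took a median of 3.78% of a cell's UMIs in HFD and 2.70% in CD β cells, 4.79% and 2.73% in α cells, and 5.40% and 3.23% in δ cells. Median UMIs per cell were 24050 in HFD and 26671 in CD β cells and 4781 and 6442 in δ cells. The 8 endothelial markers summed to 157 CPM in HFD and 55.0 in CD β cells and to 347 and 124 in δ cells, none of them at 0. Erythroid markers (4 genes) summed to 564 CPM in HFD and 7.71 in CD α cells and to 166 and 45.5 in β cells. T and B cell markers (6 genes, Cd79a among them) summed to 58.0 CPM in HFD and 301 in CD β cells. A UMI of Cd79a was found in 1379 of 7433 HFD and 3330 of 6515 CD β cells, so this sum need not reflect lymphocytes. The ratios were recomputed in 3 subsets of cells chosen after the data were seen. In cells with 2 to 4% mitochondrial UMIs the log2 ratio of Irs2 was 0.95 in β, 1.10 in δ and 1.205 in PP cells. In cells at or below their class median for immediate early genes it was 0.94 in β, 1.42 in δ and 1.06 in PP cells, and in cells with 5000 to 20000 UMIs 1.10, 1.30 and 1.22. The Irs2 ratio of β, δ and PP cells was thus within or above its interval in all 3 subsets, while that of α cells was 0.25 in cells low in immediate early genes. In the same order the Irs1 ratio of β cells was 0.18, 0.40 and 0.50, of which 0.40 and 0.50 lie above its interval. In β cells Igf1r stood at 0.04, 0.04 and 0.21 and Akt2 at -0.10, -0.02 and 0.07.

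The δ cell ratios of Pik3r1 and Foxo1 did not hold in the way that of Irs2 did. In the mitochondrial window, with 85 HFD and 414 CD δ cells, Pik3r1 lay inside the fold at 0.13 and Foxo1 at 0.56. In δ cells with 5000 to 20000 UMIs Pik3r1 lay at 0.56 and Foxo1 at 0.91. In δ cells low in immediate early genes Pik3r1 stood at 0.84 and Foxo1 at 1.35. In PP cells Pik3r1 was at -0.63 in the mitochondrial window, with 354 HFD and 133 CD cells. The part of the mitochondrial share in these ratios was not tested.

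Irs2 and Pik3r1 were also read in subsets of β cells with and without a UMI of marker genes, and each was higher in HFD in every subset. Cells without a cell cycle UMI were 7084 of 7433 in HFD and 6153 of 6515 in CD. Those without Aldh1a3 were 7059 and 6489, so both subsets largely repeat the class. CD cells with Aldh1a3 held 15 Irs2 and 36 Pik3r1 UMIs. There the Pik3r1 intervals overlapped (107 to 131 CPM in HFD, 57.8 to 114 in CD). β cells with a UMI of a cell cycle gene had Irs2 at 66.4 CPM in HFD and 30.8 in CD, and those without had 60.7 and 32.2. β cells with a UMI of Aldh1a3, a gene linked to β cell dedifferentiation in mice, had Irs2 at 66.1 CPM in HFD (374 cells) and 34.4 in CD (26 cells), and those without had 60.7 and 32.1. β cells with a UMI of Cd79a, one of the T and B cell markers, had Irs2 at 57.2 CPM in HFD (1379 cells) and 32.6 in CD (3330 cells). Those without had 62.0 and 31.3. Pik3r1 was likewise at 130 CPM in HFD and 85.7 in CD cycling-gene-positive cells and at 124 and 82.4 in the rest. No difference between these subsets was tested, and the genes given next were named after their values were seen. Foxo1 was at 86.6 CPM with and 69.4 without Cd79a in HFD, and at 66.7 with and 56.6 without in CD. Igf1r was at 117 CPM with and 146 without a cell cycle gene in HFD, and at 116.5 with and 137 without in CD. Akt2 was at 51.6 CPM with and 46.6 without Cd79a in HFD, and at 50.2 with and 41.7 without in CD. In CD every member was higher with Cd79a. In HFD Irs1, Irs2 and Pik3r1 were lower with it and the other members higher, Igf1r at 157.5 CPM with and 140.7 without. Cells with a UMI of a cell cycle gene were also deeper, with a median of 35130 UMIs against 23783 in HFD. For Cd79a the medians were close in HFD, 24303 with and 24030 without, and further apart in CD, 29381 and 25070.

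The wider pathway was followed through gene lists, given here for β cells, where the median log2 ratio over all genes was 0.04. Of 8 PI3-kinase genes 2 were past the fold toward HFD (9.6% of all genes), Pik3r1 and Pik3r3, another regulatory subunit (39.7 CPM in HFD, 22.6 in CD, log2 0.81), and the list median was 0.19. Pik3r3 was also past it in α (0.78) and δ cells (0.72), and within it in PP cells (0.25). The δ value came from 43 HFD and 34 CD UMIs, with an interval of 0.03 to 1.41. None of the 7 AKT and AKT kinase genes was past the fold in β cells; Akt1 was at 58.9 CPM in HFD and 78.7 in CD (log2 -0.42). Mapkap1, a subunit of the mTORC2 complex that phosphorylates AKT, was past the fold toward CD in α (-1.15), δ (-0.64) and PP cells (-0.82), and stood at -0.38 in β cells. None of the 5 receptor genes was past it, among them Insrr, the insulin receptor-related receptor (224 CPM in HFD, 201 in CD).

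Of 20 inhibitors of the pathway 3 were past the fold toward HFD and 1 toward CD in β cells, where 9.6% and 4.89% of all genes were. The last was Trib3, an AKT-binding pseudokinase (5.25 CPM in HFD, 10.3 in CD, log2 -0.97), and its relative Trib2 was at 7.66 and 3.48 (log2 1.14). Socs2, which damps cytokine and growth hormone signals, was past the fold toward CD in α (-0.89) and PP cells (-1.13). Of 7 ligands and binding proteins 2 were past the fold toward HFD, Igfbp3 and Igfbp4, and 1 toward CD. That one was Igfbp5, named after its values were seen (6.13 CPM in HFD, 12.6 in CD, log2 -1.05). Igfbp3 was at 16.4 CPM in HFD and 6.07 in CD β cells (log2 1.44) and at 28.7 and 10.7 in α cells (1.43). Igfbp3 is a leading gene of the endothelial-like cluster, whose markers were also higher in HFD β cells, and the part of free RNA in it was not tested. Among AKT and mTORC1 outputs 1 of 14 was past the fold, Tbc1d4, a GTPase-activating protein that AKT inhibits (19.9 CPM in HFD, 11.3 in CD, log2 0.81).

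Irs2 belongs to 2 lists of genes known from other work to respond to a regulator and is counted in both. Both lists were chosen with earlier results of these data known, so their counts are a description. No difference between the lists was tested. Of 18 FOXO target genes with enough UMIs 2 were past the fold toward HFD, Irs2 itself and Pdk4 (3.49 CPM in HFD, 2.03 in CD), a share near the 9.6% of all genes, and the list median was 0.14. Txnip, with the most UMIs of that list, stood at 0.45 and Sod2 at -0.38. Of 13 CREB or cAMP target genes 7 were past it, Irs2 among them, and 13 of 13 had a ratio above 1, with a median of 0.61. Of all genes in β cells 9.6% were past it and 7610 of 13974 had a ratio above 1. They included Ppargc1a, a transcriptional coactivator (22.6 CPM in HFD, 5.32 in CD, log2 2.08), and Nr4a1, an orphan nuclear receptor (38.8 and 12.3, log2 1.66). Pcsk1, a proinsulin-processing enzyme, was at 500 and 359 CPM (log2 0.48).

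The CREB list shares Irs2 with the FOXO list and Fos, Dusp1 and Nr4a1 with the list of immediate early and dissociation genes. That list was also higher in HFD, with 7 of 16 past the fold in β cells (median 0.51), 9 of 16 in α (0.72), 5 of 16 in δ (0.44) and 9 of 16 in PP cells (0.66). Of the mitochondrially encoded genes 6 of 13 were past it in β cells (median 0.58). In the other endocrine classes the CREB list had 4 of 13 past the fold in α cells (median 0.46), 3 of 11 in δ cells (0.49) and 5 of 11 in PP cells (0.42). The FOXO list had 1 of 17, 2 of 15 and 1 of 15 past it toward HFD there, near the shares of all genes. Those shares were 4.96% in α, 8.01% in δ and 4.37% in PP cells. The part of the dissociation response in the CREB list was not tested.

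**Figure D5:**
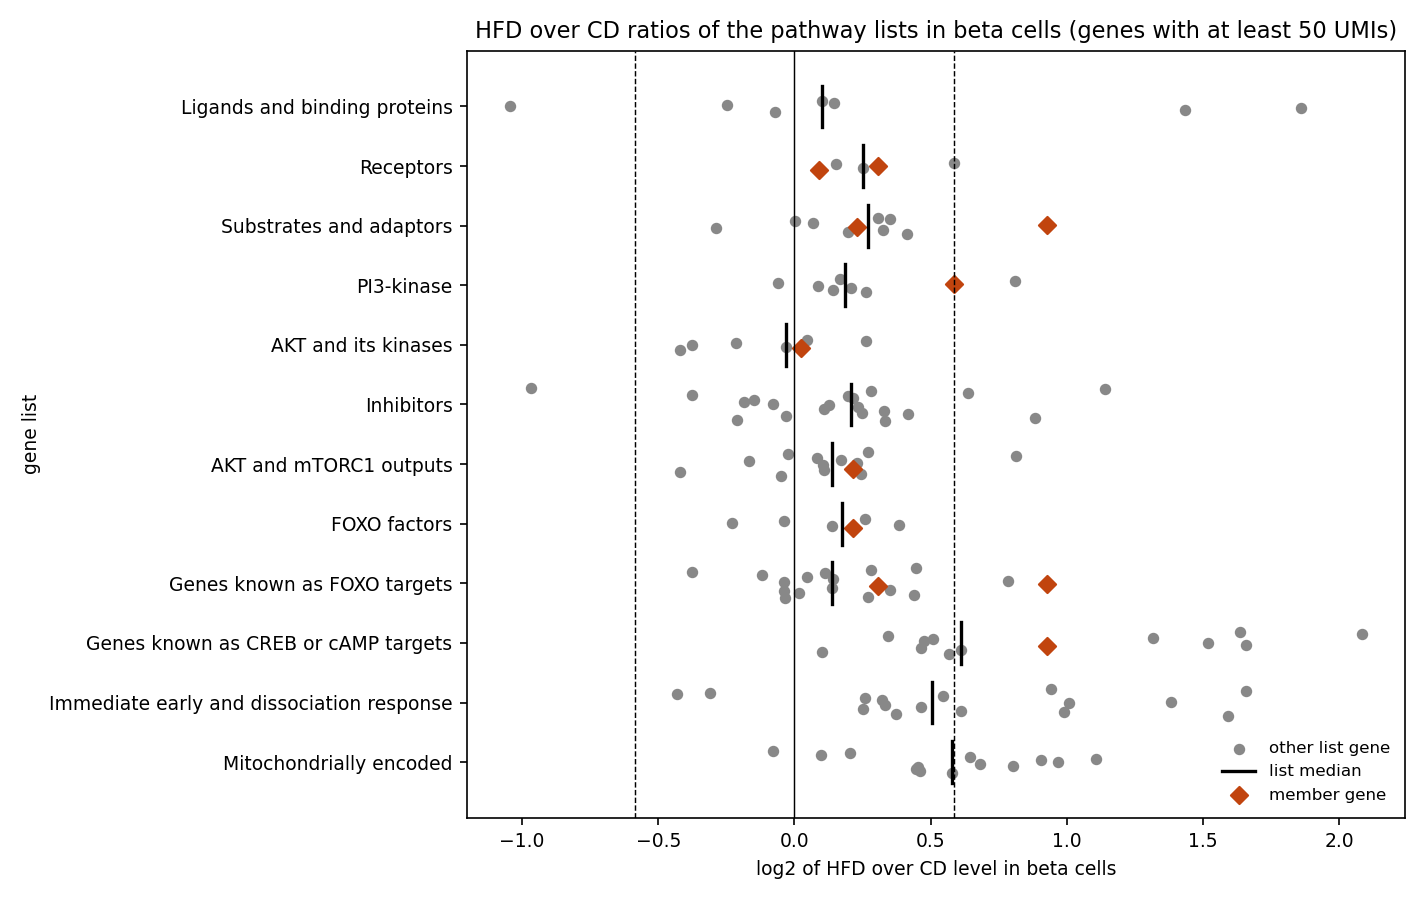
Log2 of the HFD over CD level in β cells (x axis) for the genes of 12 lists (rows; 1 point per gene with at least 50 UMIs, members of the set of 7 as diamonds, vertical ticks for list medians), with dashed lines at a ratio of 1.5. The medians of the CREB or cAMP (0.61), mitochondrially encoded (0.58) and immediate early lists (0.51) lie right of those of the signalling lists, which lie between -0.03 and 0.27.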

How the data were processed

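UMI counts per gene and barcode were deposited by the authors as 1 unfiltered matrix per library; per the submitters' processing notes they were made with Cell Ranger 6.0.1 and mm10, and per the file headers the matrix was written by software version 3.0.2. No annotation release is stated in those sources; 99.62% of the 31053 gene IDs are in GENCODE M21, used for positions. Cells were filtered and classed by the thresholds in the text; doublets were treated only by requiring 1 hormone, with scrublet removal as an alternative. Cells of no hormone class were clustered (scanpy 1.11.5, 2000 variable genes, 30 components, Leiden resolution 0.05), and clusters were named from marker lists. UMIs were summed per class and library. HFD over CD ratios carry exact conditional binomial 95% intervals and no p-value. Class pairs were tested on the summed counts with edgeR 4.0.16 (quasi-likelihood, library as block, 1 residual degree of freedom per gene, at least 50 UMIs, no TMM), with DESeq2 1.42.0 as an alternative. Scripts ran in Python 3.11.15 (scipy 1.17.1) and R 4.3.3 and were tested on simulated data.

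Free RNA was estimated from barcodes of 10 to 100 UMIs. The members and gene lists were chosen with earlier results of these data known. Genes named from a list were, per class, the 2 with the most UMIs and the 2 with the ratio farthest from 1, some left out for room; nearest genes were the 3 with the highest r among genes with at least 200 UMIs. Promoter windows are from RefSeq and were matched by symbol.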

Additional observations from a re-analysis of the deposited data

How the results depend on the processing

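No paired analysis was possible because HFD and CD share 1 replicate number, with 1 library each. Of the HFD over CD ratios of the members under the alternatives, 485 stayed within their counting interval, 52 moved by more, and no ratio past the fold changed sign. In β cells 2 members were past the fold toward HFD; 0 were at a fold of 2, and 1 was with total UMIs, TMM, median-ratio factors, at least 3000 UMIs, at most 10% mitochondrial UMIs, hormone limits 1.5 times as high, 2 to 4% mitochondrial UMIs or 5000 to 20000 UMIs. In α cells 0 became 5 at the lower fold of the alternatives (and 1 toward CD), 3 after thinning to 1000 UMIs, and 2 with free RNA subtracted, in the mitochondrial window or in the depth window. In δ cells 3 became 1 in the mitochondrial window. In PP cells 1 became 2 at the lower fold or in the depth window, and 1 was lower with at least 10 UMIs or in the mitochondrial window. In the other cells 2 became 4 at the lower fold, 0 at a fold of 2 and 1 with at most 10% mitochondrial UMIs, with cells weighing the same, thinned, without acinar cells or in the mitochondrial window. In endothelial-like cells 0 became 2 at the lower fold, 1 with thinning and 1 higher and 1 lower with at least 10 UMIs. The shares of all genes under these alternatives are not given here, so these counts are not read as a result about the members. The cause was not tested for any of these.

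For class differences, total UMIs as library size reversed 11: β over α for Insr (-0.66) and Foxo1 (-0.30), β over δ for Igf1r (-0.69), Pik3r1 (-0.62) and Akt2 (-0.0705), β over PP for Insr (-0.0004), β over other for Igf1r (-0.23), Irs2 (-0.95) and Akt2 (-0.0789), α over PP for Igf1r (0.0675), and δ over PP for Irs2 (0.28). By construction that scale adds the hormone UMIs, so the median of all genes moved to as low as -1.29 (β over δ). On it the β differences of Akt2 from δ cells and of Insr from PP cells had opposite signs in the HFD and CD libraries. Members called higher and lower on that scale were 2 and 3 for β over α, 0 and 5 for β over δ, 2 lower for β over PP, 0 and 4 for β over other, 4 and 0 for α over PP, 6 and 0 for δ over PP, and 0 and 5 for PP over other. Of all genes, 1263 were higher and 10141 lower of 14255 for β over α, and 469 and 11439 of 14122 for β over δ. For β over PP they were 1592 and 5580 of 14080, and for β over other 531 and 11291 of 14894. For α over PP they were 6322 and 371 of 11551, and for δ over PP 9348 and 189 of 10713. For PP over other they were 447 and 8976 of 12520. The member counts are therefore not read as a result about the members. Without the library block 0 members were lower for β over α and β over PP, 0 higher and 1 lower for α over δ, 0 lower for α over PP, 1 and 0 for δ over PP, and 1 and 1 for δ over other. Of all genes, 990 of 14255 and 1063 of 14080 were then lower for β over α and β over PP. For α over δ 497 were higher and 2192 lower of 11807, and for α over PP 607 were lower of 11551. For δ over PP they were 907 and 395 of 10713, and for δ over other 2699 and 2555 of 12650. With TMM 2 members were lower for α over δ (1991 of 11807 genes) and 1 higher for δ over other (2817 of 12650 genes). DESeq2 called 1 member lower for α over δ (857 of 11807 genes), 0 lower for α over PP (320 of 11551), and 0 and 0 for δ over PP (502 and 377 of 10713). It called 0 members higher for δ over other (1003 of 12650 genes) and PP over other (463 of 12520). Counts over all genes moved by more than 1.5 times: for β over α between 1263 and 6956 higher and between 990 and 10141 lower. Members with under 50 UMIs in a class are limited by depth.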
